A study of Mus musculus with 30 samples.

Results

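The samples described here were wild type mouse embryonic fibroblasts (MEFs) stressed with 100 mM NaCl for 45 min, without inhibitor. They were chosen by their labels, and are 2 of the 30 arrays of the series, replicate 1 and replicate 2 of 1 group. On each array the RNA of stressed cells (Cy5) was set against RNA pooled from 2 unstressed wild type cultures (Cy3), called the untreated pool below, so every value is a log2 ratio of stressed cells over that pool. All cells of the study were immortalised MEFs in exponential growth. The other wild type groups used here had 2 arrays each: 100 mM NaCl for 2 h or 8 h, anisomycin (25 ng/ml, an inhibitor of protein synthesis) for 45 min, TNFα (100 ng/ml, an inflammatory cytokine) for 45 min, SB203580 with NaCl for 45 min, and SB203580 alone. The spread that limma used came from all 30 arrays, the 22 wild type ones and 8 of p38α-/- MEFs (untreated, anisomycin 45 min, TNFα 45 min and NaCl 2 h). SB203580 inhibits the kinases p38α and p38β. The protocol gives it as 10 µM for 30 min before the stress, whereas the sample titles give 10 mM and 2 h, and which one applies to a given array is not settled here.

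Extra salt in the medium draws water out of cells, and the p38 stress-activated kinases are among the first enzymes to be switched on. Kinase signals then reach transcription factors already present in the nucleus, and the immediate early genes, such as Fos and Jun, are transcribed without new protein synthesis. Many immediate early products act back on the signal: dual-specificity phosphatases remove phosphate from the kinases, and TTP-like proteins speed the decay of short-lived mRNAs. Slower genes, which help cells to take up or make compatible osmolytes, are known targets of the factor Nfat5.

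The sequence upstream of the start site is shown for 3 genes that were above the pool and 2 that were under it, because the results below turn on them. These are the 250 bases before the start in RefSeq (GRCm38.p6), written 5′ to 3′ along the gene's strand. Capitals mark the letters matched on either strand: TGACGTCA (the CRE), its half-site TGACG (which a full CRE also contains), the CArG box bound by serum response factor, TATAAA (which can lie inside a CArG box) and CCAAT. Fos lies on the + strand, and its window is chr12:85473640-85473889. Zfp36 is on the - strand (chr7:28379229-28379478), as are Dusp1 (chr17:26508473-26508722) and Hist2h2ac, now H2ac20 (chr3:96220881-96221130). Hist1h2ai, now H2ac13, is on the + strand (chr13:21716162-21716411).
Fos: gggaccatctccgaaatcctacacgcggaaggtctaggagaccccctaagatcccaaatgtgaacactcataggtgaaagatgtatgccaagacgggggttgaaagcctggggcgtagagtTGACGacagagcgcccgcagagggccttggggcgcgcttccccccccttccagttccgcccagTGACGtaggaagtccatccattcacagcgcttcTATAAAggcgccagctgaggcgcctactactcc
Zfp36: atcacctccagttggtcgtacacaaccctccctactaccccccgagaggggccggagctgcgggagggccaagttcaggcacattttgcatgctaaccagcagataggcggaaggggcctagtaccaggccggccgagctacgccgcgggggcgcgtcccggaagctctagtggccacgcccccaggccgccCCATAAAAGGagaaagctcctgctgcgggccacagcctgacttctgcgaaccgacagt
Dusp1: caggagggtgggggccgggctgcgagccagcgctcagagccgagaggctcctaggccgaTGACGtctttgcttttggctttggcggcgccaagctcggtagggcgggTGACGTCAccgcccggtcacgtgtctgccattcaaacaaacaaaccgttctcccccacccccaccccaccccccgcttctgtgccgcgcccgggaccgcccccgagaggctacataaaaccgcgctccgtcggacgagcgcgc
Hist2h2ac: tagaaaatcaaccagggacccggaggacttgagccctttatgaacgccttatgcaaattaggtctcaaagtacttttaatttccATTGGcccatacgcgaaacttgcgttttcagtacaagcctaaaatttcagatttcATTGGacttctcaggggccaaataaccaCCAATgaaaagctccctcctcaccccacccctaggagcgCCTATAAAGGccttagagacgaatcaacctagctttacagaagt
Hist1h2ai: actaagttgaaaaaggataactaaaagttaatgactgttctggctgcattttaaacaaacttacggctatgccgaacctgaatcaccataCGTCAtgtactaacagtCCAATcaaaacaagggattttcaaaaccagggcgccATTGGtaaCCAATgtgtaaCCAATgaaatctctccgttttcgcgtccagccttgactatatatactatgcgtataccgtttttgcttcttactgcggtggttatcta
The Fos window held 2 half-sites and 1 TATAAA, the Zfp36 window 1 CArG box, and the Dusp1 window 1 CRE and 3 half-sites, those of the CRE included. The Hist2h2ac window held 3 CCAAT matches, 1 CArG box and 1 TATAAA, and the Hist1h2ai window held 4 CCAAT matches and 1 half-site. Of 32851 windows of the same length, 1.55% held a CRE, 17.8% a half-site, 1.47% a CArG box, 12.4% a TATAAA and 33.8% a CCAAT. These matches describe the letters and are not binding sites.

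The arrays carried 21689 named genes, of which 19250 had a value on replicate 1 and 13703 on replicate 2. Both arrays measured 13296 genes, and these were the genes tested. The gap came from replicate 2, where the scanner software marked 44.8% of spots as outliers, the highest share of the 30 arrays, against 15.4% on replicate 1. Marked spots were left out, and they were the bright ones, on replicate 2 with a median Cy3 signal of 4284 against 694 for the others. Some strongly expressed genes therefore have a value on 1 array alone, and where marked spots are used below this is said. Across genes, which are not independent replicates, the 2 arrays correlated with r = 0.41, or 0.55 with marked spots kept. The 9 fibroblast markers on the array, from the collagen Col1a1 to vimentin, were well above background, with mean log2 Cy5 signals of 9.65 to 16.50 where the median probe had 10.28. All 11 markers of blood, epithelial, endothelial and pluripotent cells were also above background (7.03 to 13.79), so on these arrays detection does not separate cell types. Of the 11, 6 could be tested at 45 min and none passed. In total RNA, fewer cells of a type and less RNA per cell cannot be told apart.

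At 45 min of NaCl few genes were far from the untreated pool on both arrays. Of the 13296 genes, 10 were at least 2.5-fold above the pool on each array (0.0752%) and 21 at least 2.5-fold under it (0.158%). Among the 10 were the AP-1 subunits Fos and Jun, the vasoconstrictor peptide gene Edn1, the mRNA decay factor Zfp36, the protease gene Gzma, the glycosyltransferase gene Gcnt3, and 4 RIKEN clones. Single arrays gave many more: 310 of these genes reached 2.5-fold up on replicate 1 and 59 on replicate 2, and 96 and 51 reached 2.5-fold down. Taken across all groups by limma, 618 genes were higher than the pool (4.65%) and 690 were lower (5.19%) at an adjusted p under 0.05 with both arrays on that side. With the replicate number as a block these counts were 1352 and 1196, 149 and 131 without replicate 1, and 236 and 376 without replicate 2. Counts of listed genes with the replicate block are to be read beside these 1352 and 1196 of 13296 genes. Most changes among the 618 and 690 genes were small. The median log2 ratio was 0.62 among the higher genes and -0.56 among the lower ones, and 79 and 95 of them had a mean of at least 2-fold. The test holds the spread between arrays of treated cells alone, since the pool is 1 sample that all arrays share. In SB203580 alone, cells that had no stress, the same 618 and 690 genes had medians of 0.50 and -0.48 over the same pool.

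**Figure D1:**
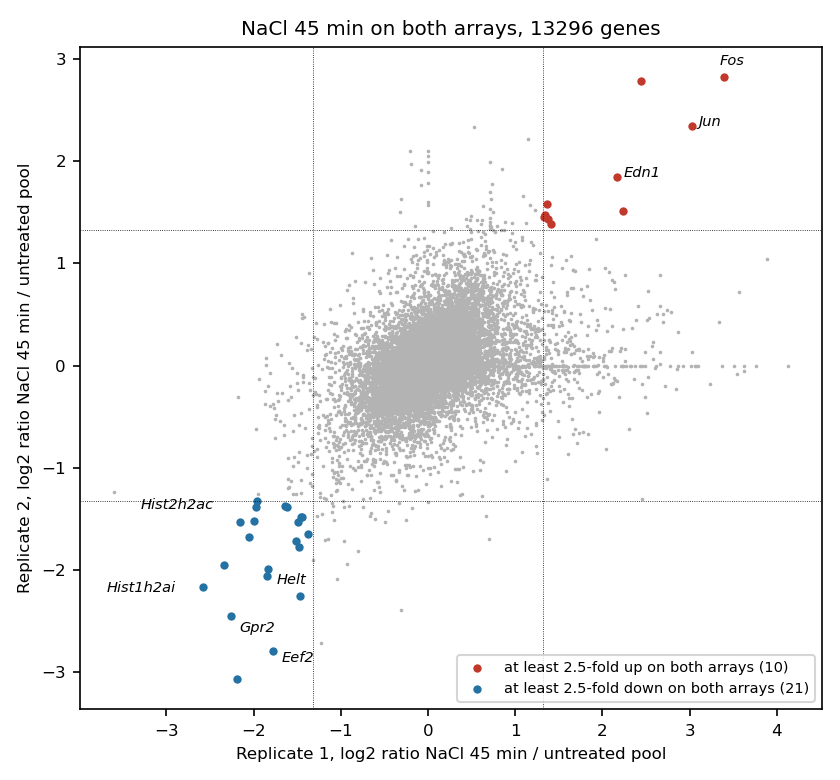
Log2 ratio of NaCl 45 min over the untreated pool on replicate 1 (x axis) and replicate 2 (y axis), 1 point per gene for the 13296 genes measured on both arrays, with dotted lines at 2.5-fold. Red points are the 10 genes up on both arrays, led by Fos and Jun, and blue points the 21 genes down on both. A band of genes is high on replicate 1 and near 0 on replicate 2.

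The AP-1 family, dimeric factors that bind the CRE-like sites of many stress genes, contained the strongest rises. Fos was 3.40 on replicate 1 and 2.82 on replicate 2 (log2 ratios), which is 8.63-fold (mean 3.11 ± 0.41, SD, n = 2, limma adjusted p = 7.0e-05). Jun was 3.02 and 2.35, 6.43-fold (2.68 ± 0.48, adjusted p = 4.1e-06). Both were thus well over the pool on each array. Junb was 1.24 and 0.30 (adjusted p = 0.13), and Atf3, a repressor of the same family, was 0.49 and -0.03 (adjusted p = 0.39). Of the 11 AP-1 genes listed, 6 could be tested, 2 rose and none fell, with a median log2 ratio of 0.65 against 0.01 over all genes tested, of which 4.65% were higher and 5.19% lower. With the replicate block 3 rose, the third being Mafk (0.80 and 0.25, adjusted p = 0.018), and 1 fell. Over all 13296 genes the block gave 1352 higher and 1196 lower.

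Other immediate early genes rose less. Ier2, a nuclear early response protein, was 1.14 and 2.21, but the value of replicate 2 came from 1 of its 2 probes, and with marked spots kept it was 1.34. It passed with a mean of 1.68 (adjusted p = 0.011), and did not pass with normexp and loess (0.47, adjusted p = 0.149) or in the series matrix (0.81, adjusted p = 0.051). Ier5, another early response gene, was 1.43 and 1.06, 2.37-fold (adjusted p = 0.00049). Tiparp, an ADP-ribosylating enzyme that restrains the aryl hydrocarbon receptor, was 1.17 and 1.03, 2.14-fold (adjusted p = 0.00021). These 3 were above the pool on both arrays. Klf4, a zinc finger factor, was 1.78 and 0.68 (adjusted p = 0.038). Of the 15 such genes on the array, 8 were tested, 4 rose and none fell, with a median of 1.17, beside 4.65% and 5.19% of all genes. Myc, whose value on replicate 1 was 2.24 and on replicate 2 was 0.36, did not pass (adjusted p = 0.13). Nmyc1 (now Mycn), a relative of Myc, was 1.01 and 0.78 (1.86-fold, adjusted p = 0.00046), but its probes differed. The first was 0.36 and 0.03 and the second 1.66 and 1.53. Egr1, a serum-response zinc finger gene, was 1.82 on replicate 1, and all its spots on replicate 2 were marked, with a value of 0.84 if kept. Of the 7 Egr and Nr4a genes, 2 were tested. Nr4a3, an orphan nuclear receptor, was -1.33 and -1.06, with Cy5 not well above background on either array. It was thus at least 1.87-fold lower than the pool (adjusted p = 0.00035). With normexp and loess its mean was -0.27, nearer the pool than this bound.

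Genes that act back on the signal and on mRNA were part of the early set. Zfp36, which encodes TTP and shortens the life of AU-rich mRNAs, was 1.41 and 1.38 (2.63-fold, adjusted p = 0.00035). Its replicate 2 value came from 1 of 2 probes, and was 0.96 with marked spots kept. Zfp36l1, its relative, was 1.01 and 1.14 (2.10-fold, adjusted p = 0.00063). So 2 of the 3 mRNA decay factors rose, beside 4.65% of all genes. The amounts were similar on both arrays for Zfp36l1 alone. Of the 16 MAP kinase phosphatases and feedback genes on the array, 11 were tested, and 2 rose, beside 4.65% of all genes. Both are inhibitors of Ras-ERK signalling: Spry2 at 0.84 and 0.78 (adjusted p = 0.0011), and Spred2 at 0.36 and 0.80 (adjusted p = 0.016). For Spry2 1 probe was 0.14 and 0.12 and the other 1.55 and 1.43. Spred2 did not pass by limma with the brightest probe (0.63, adjusted p = 0.062). Dusp1, the early phosphatase that acts on p38 and JNK, was 2.66 on replicate 1, and its only spots on replicate 2 were marked. With those kept it was 2.02 and the mean 2.34 ± 0.45 (SD, n = 2), 5.06-fold over the pool, and adjusted p = 1.0e-06. Dusp10, another phosphatase for p38 and JNK, was 1.07 and 0.43 (adjusted p = 0.080, and 0.032 with the replicate block, which brought the count to 4).

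Secreted and surface proteins formed the next group. Edn1, the precursor of endothelin 1, was 2.16 and 1.84 (4.01-fold, mean 2.00 ± 0.23, SD, n = 2, adjusted p = 0.0016). Ptgs2, the inducible cyclooxygenase that makes prostaglandins, was 2.26 and 0.89 (2.97-fold, adjusted p = 0.011). Epha2, an ephrin receptor, was 1.69 and 0.92 (adjusted p = 0.0060). In these genes both arrays were above the pool, replicate 1 more than replicate 2. F3, tissue factor, rose 1.93-fold (adjusted p = 0.032). Of 10 growth factor, receptor and matrix genes tested, 3 rose and none fell, beside 4.65% and 5.19% of all genes, with a median of 0.51. With the replicate block 5 rose, beside 1352 of all 13296 genes. Cyr61, a matrix signal, had no unmarked spot on replicate 1 and was 2.59 there if kept, against 1.81 on replicate 2. Of the 12 cytokines and inflammatory mediators tested, 1 rose, Ptgs2, and the list's median was 0.26. With the replicate block 4 rose, adding Cxcl10 (1.21 and 0.39, adjusted p = 0.028), Ccl20 (1.13 and 0.79, adjusted p = 0.010) and Tnfaip3 (0.99 and 0.37, adjusted p = 0.0083). Gadd45b, a growth arrest and stress sensor gene, was 0.90 and 0.95 (adjusted p = 0.0021) and was the only 1 of 8 growth arrest and cell death genes tested to rise.

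Id2, which blocks basic helix-loop-helix factors, was 1.19 and 1.21 (2.30-fold, adjusted p = 0.00067), and Id4 was 0.89 and 0.56 (adjusted p = 0.030), 2 of 6 tested genes of the Id, BMP and Notch list, beside 4.65% of all genes. The 5 transcription factors that the study names for NaCl were chosen on these arrays, so their direction is not independent evidence. Of these, 4 were tested and 2 rose, Foxc1 at 1.11 and 0.98 and Runx2 at 0.84 and 0.96 (adjusted p = 0.00063 and 0.013). For Runx2 1 probe was 1.24 and 1.11 and another 1.14 and 0.81. Its other probes, marked on replicate 2, were 0.05 and -0.32, and 0.14 and -0.18, with marked spots kept. The mean of Runx2 was then 0.50 (limma adjusted p = 0.0022). Sparc, a matrix glycoprotein, was the only fibroblast marker of 6 tested to rise (0.50 and 0.61, adjusted p = 0.031), and it did not pass with marked spots kept (adjusted p = 0.078). Gzma was 1.38 and 1.43, 2.65-fold (adjusted p = 0.013), and Gcnt3 1.33 and 1.46, 2.63-fold (adjusted p = 0.0060), with Gcnt3 well above background in Cy5 on 1 array. Both means were smaller with normexp and loess, 0.47 for Gzma and 0.28 for Gcnt3, and Gcnt3 did not pass in the series matrix (0.70, adjusted p = 0.064).

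Of 12 osmoprotective genes, 5 were tested, none rose and 1 fell, with a median of -0.13. With the replicate block 1, Hspa1a (0.55 and 0.67, adjusted p = 0.037), rose. Its probes differed in sign. For Hspa1a 1 probe was 1.26 and 0.78 and another 0.88 and 0.56. The others were -0.51 and -0.26, and -0.35 and -0.33, with marked spots kept. The one that fell was Slc5a3, the sodium-dependent myo-inositol transporter, at -0.84 and -0.27 (adjusted p = 0.038). It did not pass with normexp and loess (-0.25, adjusted p = 0.10), in a fit of wild type arrays alone (adjusted p = 0.064) or without replicate 1 (adjusted p = 0.64). Nfat5 itself and Akr1b3, aldose reductase, which makes sorbitol, did not pass. Sgk, the serum- and glucocorticoid-regulated kinase now called Sgk1, was 1.53 on replicate 1 and, with marked spots kept, 0.76 on replicate 2. With marked spots kept, all 12 had values. Then 3 (Sgk, the amino acid transporter Slc38a2 and the heat shock gene Hspa1a) were higher and 2 lower. Over all genes 4.98% were higher and 14% lower in that setting. Of 12 ion and water balance genes, 2 were tested and neither passed. The 9 transporters that the study names for NaCl, also chosen on these arrays, were all tested and none passed, with a median of 0.73, and with the replicate block 1, the cation channel gene Trpm3 (1.20 and 0.25, adjusted p = 0.011), rose. They split by array. The peptide transporter Slc15a1 was 2.53 and -0.11, Slc35f1 1.94 and -0.08, and the potassium channel subunit gene Kcnv2 1.71 and 0.00. Probes differed in 2 of these genes. For Slc35f1 1 probe was -0.17 and -0.15 and the other 4.05 and 0. For Trpm3 1 probe was 3.07 and 0.48, another 0.62 and 0.28, and the third -0.09 and -0.01. Over the 173 solute carriers tested, 5 were higher and 9 lower (2.89% and 5.2%), and over 520 chemosensory receptors 10 and 9 (1.92% and 1.73%), beside 4.65% and 5.19% of all genes. With the replicate block these were 8 and 14 solute carriers, and 43 and 28 receptors, beside 1352 and 1196 of all 13296 genes.

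For 17 of the genes that rose, the values in SB203580 alone, cells without stress, are given as means of its 2 arrays over the same pool, with marked spots kept. Tiparp was 1.01 there, Id2 0.96 and Foxc1 0.91, and Gcnt3, Id4, Ier5 and F3 were 0.63, 0.64, 0.53 and 0.50. Spry2 was 0.48, Klf4 0.44, Gzma 0.42, Ptgs2 0.30, Zfp36 0.25 and Runx2 0.23. Zfp36l1 (0.21), Ier2 (0.18), Epha2 (0.03) and Gadd45b (-0.10) were the nearest to the pool of these 17 genes. With marked spots kept, the list medians at 45 min of NaCl and in SB203580 alone were 0.36 and 0.05 for AP-1 genes, 0.76 and 0.18 for other immediate early genes, 0.28 and -0.29 for growth factors, receptors and matrix signals, and -0.06 and -0.09 for all genes. Over the 3 tested AP-1 genes with unmarked spots on both arrays of SB203580 alone, Fos, Jun and Mafk, the median there was 1.84.

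Keeping the marked spots gave a value to every listed gene, at the cost of using spots the software distrusts. Over all 21689 genes, 1081 were then higher than the pool (4.98%) and 3036 lower (14%). Of 15 other immediate early genes 9 were higher and none lower, and of 11 AP-1 genes 4 were higher and 1, Mafg, lower. Of 16 phosphatases and feedback genes 5 were higher, among them Dusp1 and Dusp4, and 1 lower. Of 15 growth factor, receptor and matrix genes 4 were higher and none lower, and of 16 cytokines and mediators 1 was higher and 1, the NF-κB inhibitor Nfkbia, lower. Egr1, with 1.82 and 0.84, was higher (2.52-fold, adjusted p = 0.0022), as was Cyr61 (4.60-fold, adjusted p = 0.0011).

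**Figure D2:**
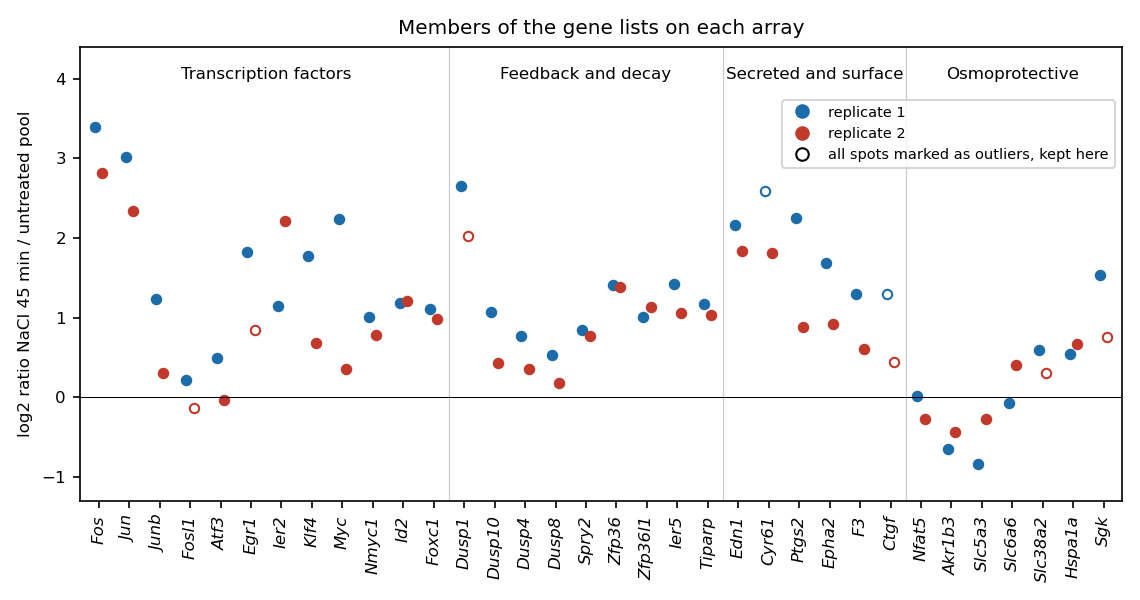
Log2 ratio of NaCl 45 min over the untreated pool (y axis) on replicate 1 (blue) and replicate 2 (red) for members of the gene lists, grouped by role; open circles are values from spots all marked as outliers. Fos (3.40 and 2.82) and Jun (3.02 and 2.35) are the highest on both arrays together.

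The 21 genes at least 2.5-fold under the pool on both arrays were a mixed group, 10 of them RIKEN clones or predicted genes. The lowest named ones were Hist1h2ai, Gpr2 (now Ccr10, a chemokine receptor), Eef2 (the ribosome translocation factor), Doc2g and Helt (a neural repressor). Gpr2 was -2.26 and -2.45 (5.12-fold lower, adjusted p = 0.00032), and Helt was -1.83 and -1.98 (3.75-fold lower, adjusted p = 1.8e-05). Atoh7, a retinal factor, was -1.46 and -2.25 with Cy5 not well above background, and so at least 2.76-fold lower (adjusted p = 0.0014). With normexp and loess the mean of Atoh7 was -0.49, nearer the pool than this bound. These genes sat as low in the unstressed SB203580 cells: with marked spots kept, the 2 SB203580 arrays had -2.18 and -2.31 for Gpr2, -1.90 and -2.08 for Helt, and -1.75 and -2.50 for Atoh7. Probes of a gene did not always agree. For Eef2 1 probe was -2.84 and -2.79, while the second was -0.72 and -0.33 and the third -0.78 and -0.76 with marked spots kept. For Doc2g the measured probe was -2.34 and -1.95 and the marked one -0.31 and -0.27. Nono, an RNA-binding nuclear protein, had a mean of -2.42 ± 1.67 (SD, n = 2, adjusted p = 0.00050) from a probe at -3.60 and -1.23, while its other probe, marked on both arrays, was 0.37 and 0.65.

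Histone genes were picked as a family after the values were seen. Of 36 replication-dependent cluster histones on the array, 32 were tested, 10 were lower and 1 higher than the pool, against 5.19% and 4.65% of all genes, and their median was -0.36 against 0.01. With the replicate block 14 were lower and 2 higher, beside 1196 and 1352 of all 13296 genes. Hist1h2ai, an H2A gene on chromosome 13, was -2.58 and -2.16 (5.18-fold lower, mean -2.37 ± 0.30, SD, n = 2, adjusted p = 4.3e-06). Hist2h2ac, an H2A gene on chromosome 3, was -2.15 and -1.53 (3.58-fold lower, -1.84 ± 0.44, adjusted p = 1.0e-05). Both were far under the pool on each array. Hist1h1b (now H1f5), a linker histone, was -1.52 and -1.72 (3.07-fold lower, adjusted p = 1.0e-05), and Hist1h2ad -1.26 and -0.66 (adjusted p = 0.00093). Copies within these clusters are nearly identical, so which copy a probe reports is uncertain. The others called lower, Hist1h2af, Hist1h1e, Hist1h4a, Hist1h4d, Hist1h4f and Hist2h4, had smaller means. For Hist1h2af 1 probe was -2.18 and -1.71 and the other -0.17 and 0.71, and with the brightest probe its mean was 0.27. The only one higher was Hist1h1t, the testis linker histone.

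Their levels across treatments differed by gene, as the plot of genes under the pool shows, with marked spots kept. Hist2h2ac in SB203580 alone was 0.13 and -0.34, in anisomycin 0.70 and 0.71, and in TNFα -0.11 and -0.33, while in SB203580 with NaCl it was -2.08 and -1.86. The NaCl arrays of Hist2h2ac, with or without SB203580, did not overlap with those of the other 3 groups. Hist1h2ai had -0.85 and -0.86 in SB203580 alone, 0.09 and 0.05 in anisomycin, -0.73 and -1.02 in TNFα, and -2.48 and -2.55 in SB203580 with NaCl. At 2 h of NaCl the means were -1.17 for Hist2h2ac and -1.72 for Hist1h2ai, and at 8 h Hist2h2ac was -0.84 and -0.76 and Hist1h2ai -1.23 and -1.38. Hist1h1b was instead low in every group, with -1.36 and -1.37 in SB203580 alone and means of -1.35 in anisomycin and -1.50 in TNFα.

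**Figure D3:**
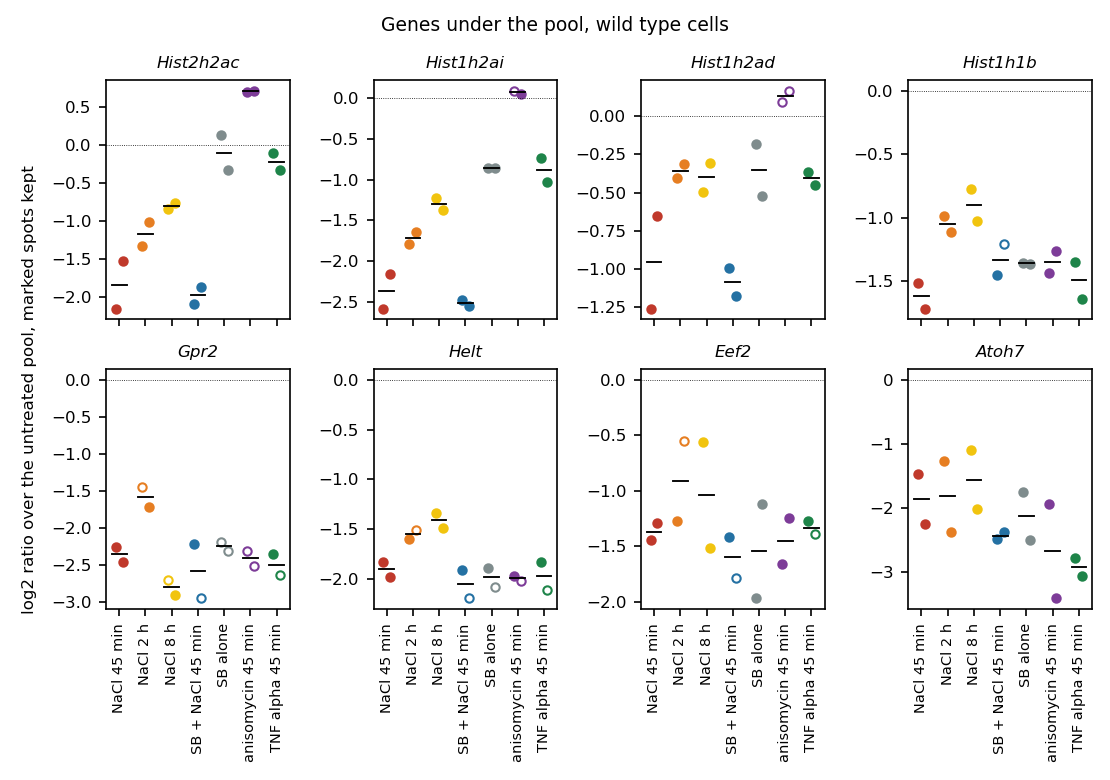
Log2 ratio over the untreated pool (y axis, marked spots kept) for 8 genes under the pool at 45 min of NaCl, in 7 wild type groups; points are the 2 arrays, open where all spots were marked, and bars the means. Hist2h2ac and Hist1h2ai are lowest in the 45 min NaCl groups, whereas Gpr2, Helt, Eef2, Atoh7 and Hist1h1b are under the pool in every group.

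A comparison with SB203580 alone, in which the pool drops out, was added after the data were seen. Of 12343 genes, 11 differed (0.0891%), 4 higher with NaCl at 45 min and 7 lower, and with the replicate block 44. Without replicate 1 of SB203580 alone none differed by limma, with 279 higher and 431 lower at an unadjusted p under 0.05, and without its replicate 2 77 did. Without replicate 2 of NaCl 45 min 31 differed. Hist2h2ac was lower by 1.73 log2 units (SE 0.24, adjusted p = 0.015), a difference of -1.73, and Hist1h2ai by a difference of -1.52 (SE 0.23, adjusted p = 0.024). Nmyc1 was higher by 1.11 (SE 0.18, adjusted p = 0.024), with 1.01 and 0.78 after NaCl and -0.17 and -0.34 in SB203580 alone. These 3 also passed with marked spots kept, though the probes of Nmyc1 differ in size. Kitl, Cdh2 and 1 RIKEN clone made up the rest of the higher genes, and Kitl and Cdh2, read by probes that disagree, did not pass with marked spots kept (adjusted p = 0.15 and 0.080). Dusp1 differed with marked spots kept, by 1.48 (SE 0.26, adjusted p = 0.0498), 1 of 11 genes that then differed (0.0507%). Edn1 was 2.16 and 1.84 with NaCl and -0.54 and -0.44 in SB203580 alone, groups that did not overlap, yet the difference of 2.49 (SE 0.47) had an adjusted p of 0.056, and 0.0059 with the block. Fos and Jun were high in SB203580 alone as well: Fos was 2.40 and 2.25, and Jun 2.05 and 1.64, over the pool. NaCl at 45 min was above it by 0.79 for Fos (95% interval -0.19 to 1.77, not adjusted for the number of genes) and by 0.84 for Jun (0.19 to 1.49), with adjusted p = 0.57 and 0.34. Both intervals come from the fit without the replicate block. The effects of NaCl and of SB203580 cannot be told apart in this comparison.

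The next question was how 45 min compares with 2 h of the same stress. Of 12968 genes, 7 differed (0.054%), 5 higher at 45 min and 2 lower, and with the replicate block 17. When limma was fitted to the 22 wild type arrays alone none differed, with 317 higher and 513 lower genes at an unadjusted p under 0.05. Without replicate 1 or replicate 2 of NaCl 45 min 3 or 2 differed, and without replicate 2 of NaCl 2 h 24 did. The 2 lower genes were immediate early genes. Ier5 was 1.43 and 1.06 at 45 min and 2.97 and 2.53 at 2 h, a difference of -1.50 (SE 0.25, adjusted p = 0.037). Tiparp was 1.17 and 1.03 and then 2.43 and 2.03, a difference of -1.13 (SE 0.19, adjusted p = 0.037). In both genes the arrays of the 2 times did not overlap. The 5 higher genes were 4 cDNA clones and 1 RIKEN clone. Zfp36l1 was 1.01 and 1.14 and then 2.28 and 2.31 (difference -1.22, adjusted p = 0.057, and 0.014 with the block), and Nmyc1 1.01 and 0.78 and then 1.95 and 1.67 (-0.92, adjusted p = 0.076).

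Side by side with marked spots kept, the early genes followed different courses, and the groups share the pool. Fos had means of 3.11 at 45 min, 3.96 at 2 h and 0.11 at 8 h, and Jun 2.68, 3.51 and -0.17. Dusp1 had 2.34, 3.42 and 2.84. Ptgs2, like Dusp1, was still high at 8 h, with 1.57, 3.05 and 2.92. Of the osmoprotective genes, Akr1b3 had -0.52, -0.13 and 2.58, though its 45 min value was 0.26 with the brightest probe, and Hspa4l, a heat shock protein of the Hsp110 family, 0.13, 0.02 and 2.47. Sgk had 1.14, 2.24 and 3.72. The 8 h arrays were not tested against 45 min.

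**Figure D4:**
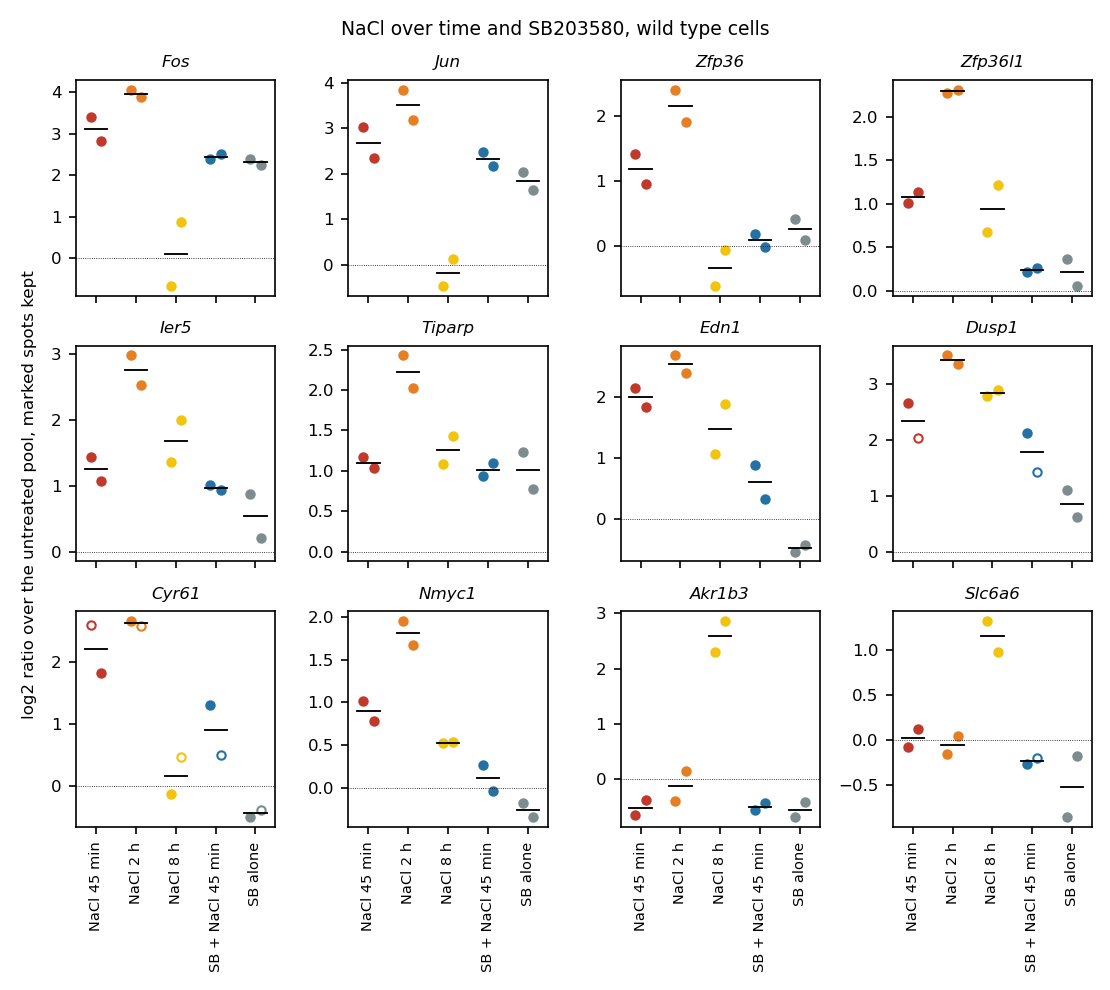
Log2 ratio over the untreated pool (y axis, marked spots kept) for 12 genes at 45 min, 2 h and 8 h of NaCl, in SB203580 with NaCl 45 min and in SB203580 alone; points are the 2 arrays, open where all spots were marked, and bars the means. Most early genes are highest at 2 h, Akr1b3 and Slc6a6 at 8 h, and Fos and Jun lie above the pool in SB203580 alone.

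SB203580 before the salt asks how far the 45 min response needs p38α or p38β. No gene of 12180 differed between NaCl with and without SB203580 by limma (0%), with 143 higher and 169 lower without the inhibitor at an unadjusted p under 0.05. With the replicate block none differed either, with a lowest adjusted p of 0.69. Without replicate 1 of NaCl 45 min 6 differed, without its replicate 2 3, and without replicate 1 of SB203580 with NaCl 1. This does not show that the groups were alike, and the intervals below are not adjusted for the number of genes. These intervals come from the fit without the replicate block, so they do not use the pairing of replicates. Zfp36 was 1.41 and 0.96 with NaCl and 0.19 and -0.01 with SB203580 before it (marked spots kept); the tested difference was 1.17 (95% interval 0.62 to 1.73). Zfp36l1 was 1.01 and 1.14 and then 0.21 and 0.26, a difference of 0.84 (0.36 to 1.32). Edn1 was 2.16 and 1.84 and then 0.88 and 0.32, a difference of 1.40 (0.42 to 2.39). For each of these genes the values with SB203580 were lower, but the difference did not pass. Fos (difference 0.66, -0.32 to 1.64) and Jun (0.37, -0.28 to 1.01) had intervals that include 0. Tiparp (0.08, -0.31 to 0.48) and Spry2 (0.06, -0.33 to 0.45) were close in both groups. Hist2h2ac (0.13, -0.38 to 0.65) and Hist1h2ai (0.15, -0.35 to 0.64) were low in both groups, with intervals that include 0.

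The last comparison set NaCl against the other 2 stresses at the same time. Against the mean of anisomycin and TNFα, 39 of 11966 genes differed (0.326%), 3 higher with NaCl and 36 lower, and with the replicate block 77. Without replicate 1 of TNFα 22 differed. Several of the lower genes were inflammatory. Cxcl10, a T cell chemokine, was 1.21 and 0.39 with NaCl, 2.71 and 1.79 with anisomycin and 6.94 and 6.34 with TNFα (difference -3.64, SE 0.48, adjusted p = 0.00096). Ccl20 differed by -3.34 and Tnfaip3, the NF-κB inhibitor A20, by -2.51 (adjusted p = 0.0019 and 0.00044). For both, NaCl and anisomycin were similar in level and TNFα far above them: the means of Ccl20 were 0.96, 1.53 and 7.07, and of Tnfaip3 0.68, 1.05 and 5.34.

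Others were led by anisomycin. Btg2, an antiproliferative gene, was -0.05 and -0.32 with NaCl, and its means with marked spots kept were 3.92 with anisomycin and 1.77 with TNFα (difference -3.82, SE 0.33, adjusted p = 8.5e-06). Btg2 was thus not above the pool after 45 min of salt. Jun was 3.02 and 2.35 with NaCl, 6.21 and 5.85 with anisomycin and 3.43 and 3.74 with TNFα (difference -2.12, SE 0.27, adjusted p = 0.00051). Dusp8, a JNK phosphatase, was 0.53 and 0.18 with NaCl and had means of 2.31 and 1.65 with the others (difference -1.63, adjusted p = 0.0025). Hist2h2ac (-2.08, adjusted p = 6.4e-05), Hist1h2af (-1.05, adjusted p = 0.0085, from probes that disagree) and Nono (-2.23, adjusted p = 0.026, from the low probe) were also lower with NaCl. With marked spots kept Nono did not pass (-0.95, adjusted p = 0.12). Cxcl5, whose 45 min NaCl values were 0.00 on both arrays from surrogate signals, and the olfactory receptor gene Olfr1015 completed the 8 lowest differences. The 3 genes higher with NaCl were Myf5, a muscle regulatory factor (1.07 and 0.70, against -1.45 and -0.54 with anisomycin and -0.88 and -0.25 with TNFα, difference 1.66, adjusted p = 0.032), Ly6g6e (1.43, adjusted p = 0.017) and 1 RIKEN clone.

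Several immediate early genes could be compared only with marked spots kept, where 66 genes of all 21689 differed (0.304%). Egr1 had means of 1.33 with NaCl, 4.71 with anisomycin and 2.89 with TNFα (difference -2.47, adjusted p = 0.00064). Atf3 had 0.23, 3.56 and 1.68 (difference -2.39, adjusted p = 2.3e-05), and Zfp36 1.18, 3.90 and 2.88 (difference -2.21, adjusted p = 2.7e-05). Junb differed by -0.99 (adjusted p = 0.0025). Each of these was thus lower with NaCl than the mean of the other stresses. Nmyc1 was higher, with 0.90 against 0.22 and 0.00 (difference 0.78, adjusted p = 0.0079). Fos, with 3.11 against 4.27 and 3.23, had a difference of -0.64 that did not pass (adjusted p = 1). Dusp1 was between the others, with 2.34 against 4.86 and 1.53, and its difference from their mean did not pass (adjusted p = 0.23).

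**Figure D5:**
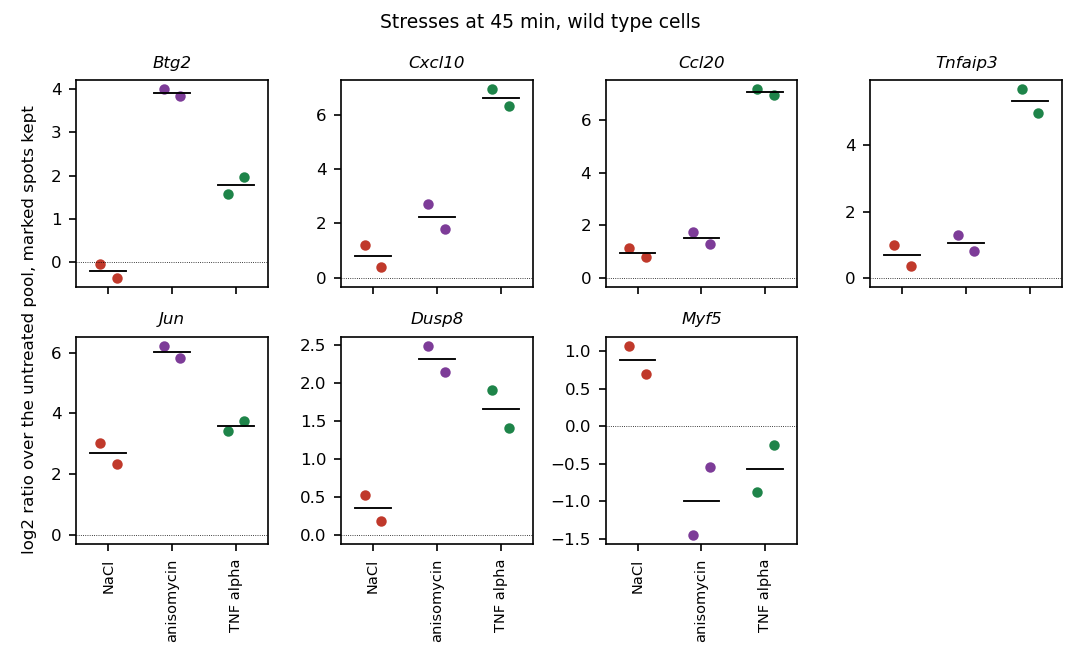
Log2 ratio over the untreated pool (y axis, marked spots kept) after 45 min of NaCl, anisomycin or TNFα in 7 genes whose difference passed limma; points are the 2 arrays and bars the means. NaCl is the lowest in all panels but that of Myf5, Btg2 and Jun are highest with anisomycin, and Cxcl10, Ccl20 and Tnfaip3 with TNFα.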

How the data were processed

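Gene expression was measured in total RNA on 30 2-colour Agilent 44K arrays without dye swaps, treated cells in Cy5 and the pool in Cy3. Agilent Feature Extraction (8.1.1.1 in the file headers, 9.1 in the submitters' processing notes) gave the authors spot intensities, and detrended and dye-normalized them and replaced dim signals by a surrogate. The deposited log10 ratio of the processed channels was multiplied by log2 of 10. The authors also deposited a series matrix, whose values appear to be log2 ratios centred near 0, used as an alternative. Spots of controls were removed, and so were those the software marked as outliers in Cy3 or Cy5. Spots of a probe, then probes of a gene, were averaged. Of 41174 probes, 33453 carried a gene name. Of 16836 RefSeq accessions, 15887 matched GRCm38.p6, which gave newer symbols.

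limma 3.58.1 (R 4.3.3) fitted 15 group means to the 30 arrays, with Benjamini-Hochberg adjustment over genes measured on every array compared, and the fit was tested on simulated data. Summaries used matplotlib 3.10.9, pandas 2.3.3, scipy 1.17.1 and numpy 2.4.6 under Python 3.11.15. Per the study's methods the 2 replicates of a treatment were separate experiments, and the number of arrays limits the precision. Intensity in both channels set which probes were well above background. A fold called "at least" sets the bright group against the lowest signal well above background.

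The replicate numbers pair wild type samples: the difference between the 2 arrays of NaCl 45 min correlated with that of each of 10 other wild type groups (r 0.42 to 0.65, median 0.50). They also follow 2 scanning batches, each with 1 array of every wild type group, so single arrays are the within-batch values. The members and gene lists were chosen with earlier results of these data known. Named genes were list members, the 20 highest and 15 lowest genes at 2.5-fold on both arrays, and the 8 largest differences per direction and comparison. One measured gene is left out of the text. Histone genes, Kitl and Cdh2 were named after their values were seen. Alternatives were normexp (offset 50) with loess, the series matrix, marked spots kept, other probe rules, a replicate block, wild type arrays only, other fold rules and each array left out, and, added later, SB203580 alone in place of the pool and marked spots kept with the block. With an array left out, the remaining one was taken to vary as the other groups do.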

Additional observations from a re-analysis of the deposited data

Results flagged for a closer look

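The results here are genes whose response to 45 min of NaCl differed from that of another treatment in the limma contrast of the 2. Against 2 h of NaCl, the differences in log2 ratio were -1.50 for Ier5 and -1.13 for Tiparp. Against the mean of anisomycin and TNFα at 45 min, they were -3.82 for Btg2, -3.64 for Cxcl10, -3.34 for Ccl20 and -2.51 for Tnfaip3. For Nono the difference was -2.23 and rests on 1 of 2 probes that disagree, and for Jun it was -2.12. Hist2h2ac differed by -2.08, Dusp8 by -1.63 and Hist1h2af, whose 2 probes disagree in sign on replicate 2, by -1.05, and the only positive difference in a gene named here was 1.66, in Myf5.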

How the results depend on the processing

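Counts of genes moved with the processing. Genes at 2.5-fold up on both arrays (10) numbered 3 with normexp and loess, 6 with the series matrix or with spots well above background, 29 at 2-fold and 66 by the mean of the arrays. Single arrays gave 60 to 315. Genes down (21) numbered 34 with marked spots kept, 10 with normexp and loess, 65 at 2-fold and 6 by a 4-fold mean, and 52 to 127 on single arrays. Genes higher and lower than the pool by limma (618 and 690) numbered 1787 and 2375 in the series matrix, 1081 and 3036 with marked spots kept, 1352 and 1196 with the replicate block, 1913 and 4006 with both, and 149 to 236 and 131 to 376 with 1 array left out. With SB203580 alone in place of the pool they numbered 4 and 7. Differences from NaCl 2 h (7) numbered 25 with normexp and loess, 75 in the series matrix, 31 with marked spots kept, 11 with probes on both arrays, 22 with the brightest probe, 17 with the replicate block, 94 with block and marked spots, 0 in wild type arrays alone and 2 to 24 with 1 array left out. Differences from the other stresses (39) numbered 72 in the series matrix, 66 with marked spots kept, 25 with the brightest probe, 77 with the block and 116 with block and marked spots, and 22 to 41 with 1 array left out. Differences from SB203580 with NaCl (0) stayed at 0 except with 1 array left out (0 to 6). The cause of these shifts was not tested, beyond fewer or more genes and arrays entering a fit. Among single genes 4 values changed sign: Atf3 (-0.034 without replicate 1, 0.49 without replicate 2), Akr1b3 (0.26 with the brightest probe, 0.031 with spots well above background) and Hist1h2af (0.27 with the brightest probe). Over 47 genes, 401 values kept direction and side of the threshold, 37 kept direction but no longer passed, and 12 newly passed. With the replicate block 4 of the 47 genes newly passed against the pool (Mafk, Cxcl10, Ccl20 and Tnfaip3) and no other of these calls changed. Signal over background limits Atoh7 and Nr4a3, which have bounds alone. With normexp and loess their means, -0.49 and -0.27, were nearer the pool than these bounds.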
